A study of Saccharomyces cerevisiae with 9 samples.

Results

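The 36 genes described here are nuclear genes of Saccharomyces cerevisiae that encode parts of the mitochondrial respiratory chain and of the ATP synthase. They were taken by identifier from the 6629 open reading frames counted in the series, with earlier results of these data known. They comprise the 4 subunit genes of succinate dehydrogenase (complex II), 2 NADH dehydrogenase genes, 9 genes of the cytochrome bc1 complex (complex III), 7 of cytochrome c oxidase (complex IV) and 14 of the ATP synthase with its inhibitor. RNA was sequenced from exponentially growing cells in SD medium, with 3 libraries from each of 3 strains. The overexpression strain has a TEF promoter beside a nourseothricin resistance marker in front of YET3, so that a constitutive promoter drives the gene. In the strain labelled YET3 deletion the same marker stands in place of YET3. The control strain has the marker at the HO locus. The labels give the genotype HISDel1 LEU2Del0 MET15Del0 URA3Del0 for all 3 strains, so every group shares those deletions. The labels do not say whether a strain is 1 clone or whether the repeats are separate cultures, so the p-values describe how these libraries vary, and that variation may be technical.

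In respiration, electrons from NADH and succinate pass through ubiquinone to complex III, then through cytochrome c to complex IV, which reduces oxygen. The protons that complexes III and IV move across the inner membrane drive the ATP synthase. S. cerevisiae has no proton-pumping complex I and oxidises NADH with single-polypeptide dehydrogenases instead. When glucose is plentiful this yeast ferments and keeps respiratory genes low, and the Hap2-Hap3-Hap4-Hap5 complex, which binds CCAAT boxes, is the known activator of many of them. YET3 encodes an endoplasmic reticulum membrane protein, and the study concerns sterol synthesis at organelle contact sites.

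The window from 400 to 101 bases before the start codon was read in build R64 (RefSeq assembly) for each member, on the strand of the gene, to see what the members share in sequence. The core CCAAT, searched on both strands, was found in 34 of 36 members (94.4%), against 43.9% of 6007 such windows of nuclear protein-coding genes. The longer form CCAATNA, which contains the core, was found in 30 of 36 (83.3%), against 15.8% of all windows. The members without CCAAT in this window were CYT1 and COX4, and SDH4, QCR2, QCR6 and ATP1 had only the core. The window was set from the start codon and not from the transcript start. Bases outside it were not searched, so a gene without a match here may have one elsewhere. In the 30 members the match nearest to the start codon began between 129 and 381 bases before it, with a median of 200 bases, and the median was 253 bases over the 950 windows with a match. That nearest match read in the direction of the gene in 24 members and on the opposite strand in 6. The core of the Rox1 site, ATTGTT, was in 11 members (30.6%) and in 31.9% of all windows. The Hap1 site, a direct repeat of CGG triplets, was in QCR6 alone among the members, which had 2 matches, at 290 and 225 bases before the start codon, and was in 0.216% of all windows. These are matches of letters, counted as a description, and not measured binding sites.

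The nearest CCAATNA match follows for the members that are described library by library and have one, because 30 of the 36 members hold it. It is in capitals, with 12 bases on each side, read on the strand that holds it.
SDH2, chrXII:54067-54097, minus strand: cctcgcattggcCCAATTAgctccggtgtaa
SDH3, chrXI:179506-179536, minus strand: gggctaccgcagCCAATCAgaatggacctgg
NDI1, chrXIII:30016-30046, minus strand: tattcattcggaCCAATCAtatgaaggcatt
NDE1, chrXIII:556720-556750, plus strand: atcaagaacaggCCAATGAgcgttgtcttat
COR1, chrII:135837-135867, minus strand: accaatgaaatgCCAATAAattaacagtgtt
QCR7, chrIV:1496711-1496741, minus strand: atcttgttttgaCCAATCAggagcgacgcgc
COX7, chrXIII:779273-779303, plus strand: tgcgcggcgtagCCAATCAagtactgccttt
COX9, chrIV:334527-334557, plus strand: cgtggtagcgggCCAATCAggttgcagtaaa
COX12, chrXII:225359-225389, minus strand: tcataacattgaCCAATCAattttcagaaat
ATP17, chrIV:1228370-1228400, plus strand: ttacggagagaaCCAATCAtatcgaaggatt
ATP18, chrXIII:104310-104340, minus strand: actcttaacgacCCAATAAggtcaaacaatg

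QCR6 has CCAAT but not the longer form, and its whole window is shown because it also holds the Hap1 repeat. CCAAT is in capitals on either strand, so that ATTGG marks a match on the other strand. Of these 300 bases, 150 lie in another annotated reading frame. They are the 150 farthest from the start codon, and hold the Hap1 match at 290 bases but not the one at 225.
QCR6, chrVI:224870-225169, minus strand: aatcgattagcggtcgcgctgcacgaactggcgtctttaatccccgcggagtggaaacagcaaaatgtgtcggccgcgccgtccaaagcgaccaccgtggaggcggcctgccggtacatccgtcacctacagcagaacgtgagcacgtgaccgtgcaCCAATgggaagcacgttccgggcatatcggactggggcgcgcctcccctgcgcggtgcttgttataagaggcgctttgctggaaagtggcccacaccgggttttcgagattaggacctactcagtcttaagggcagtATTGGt

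Libraries held between 223189 and 1634021 counts, and the 36 members together took between 0.935% and 1.32% of each. YET3 itself, the targeted gene, stood at 2261, 2029 and 1341 CPM (counts scaled for library size with TMM factors) in overexpression libraries 1 to 3, at 727.9, 327.7 and 639.5 CPM in the libraries labelled deletion, and at 477.1, 476.8 and 479.2 CPM in the control. The libraries labelled deletion therefore do not show the loss of YET3 counts. Which part of YET3 was counted is not stated. HO, where the control carries the marker, had 45.03, 28.19 and 57.15 CPM in the control libraries. It had 5.007, 6.305 and 0 CPM in overexpression and 2.957, 7.585 and 0 CPM in the libraries labelled deletion. What gives rise to the counts at either locus was not tested. All directions for the strain labelled deletion rest on its label. Overexpression 3, deletion 1 and deletion 3 stood apart from the other 6 libraries on the first principal component of all genes (46.4% of the variance). The YLR154W rows in the ribosomal DNA took 0.111% to 0.267% of the counts in these 3 libraries and 0.817% to 2.42% in the other 6. All 3 control libraries lay with the larger set. Values without the 3, where given, leave 1 library of the strain labelled deletion.

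All 36 members passed the filter on low counts. The lowest count of a member in a library ran from 21 counts in control 3, the shallowest library, to 205 counts in deletion 1, the deepest. In the control the highest mean was that of QCR7, at 705 CPM, and the lowest that of ATP5, at 113 CPM, a range of 6.25-fold. Across the 36 genes the control CPM had a Spearman rho of -0.18 with coding length, and the CPM per kilobase of coding length had a rho of -0.87. Both describe genes of 1 set of libraries. Division by coding length, which ran from 180 to 1923 bases, itself brings in a negative rho with length. It is not stated whether reads cover whole transcripts or their ends, and a level per length can be read only in the first case. COX7, a small complex IV subunit with 183 coding bases, was highest at 3404 CPM per kilobase. SDH1, the flavoprotein of complex II with 1923 coding bases, was lowest at 82.0 CPM per kilobase.

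The members varied between libraries of a strain about as much as other genes at these levels. The median SD of log2 CPM over the members was 0.34 in overexpression, 0.35 in the libraries labelled deletion and 0.18 in the control. Over the 995 genes in the same range of levels the medians were 0.34, 0.35 and 0.16. Counting alone would give the members a median SD of 0.13, 0.12 and 0.12.

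**Figure D1:**
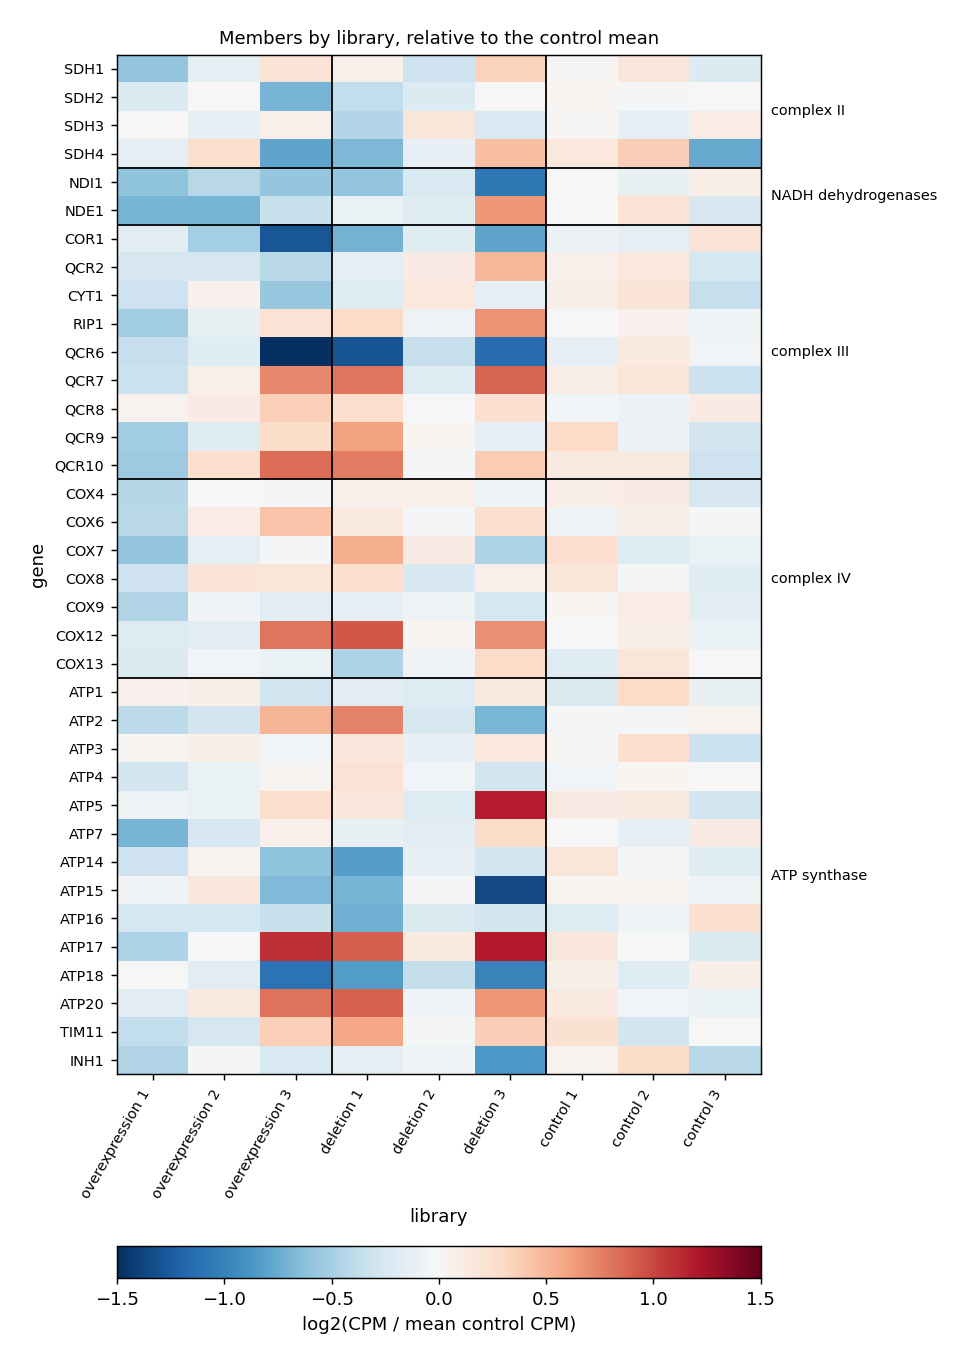
Level of the 36 members (rows, by class) in the 9 libraries (columns), as the log2 ratio of CPM to the mean control CPM on a colour scale limited to 1.5 in both directions. In overexpression 3, deletion 1 and deletion 3, QCR6 lay at 157.5 to 210.5 CPM and QCR7 at 1164 to 1287 CPM, outside the range of the control.

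The first question was whether overexpression of YET3 altered the level of these genes. No member passed the threshold of an adjusted p of 0.05 (edgeR's quasi-likelihood test with Benjamini-Hochberg adjustment over 5090 genes). Among all genes 0.629% were called higher and 0.216% lower. The lowest adjusted p of a member was 0.686. At an unadjusted p under 0.05 there were 0 members higher and 2 members lower, NDI1 and NDE1 (3.89% and 3.22% of all genes), and 0 members in either direction with the DESeq2 Wald test. Of the 36 log2 fold changes 26 were negative, with a median of -0.13 against 0.00 over all genes, of which 2555 of 5090 were negative. The 95% interval of the difference lay within a 2-fold change for 31 members, reached a 2-fold lower level for 4 and a 2-fold higher level for 1.

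The second question was whether the libraries labelled YET3 deletion differed from the control. Again no member passed (lowest adjusted p = 0.40, edgeR). Over all genes 0% were called higher and 0.0196% lower in this comparison, a single gene. At an unadjusted p under 0.05 there were 3 members lower, QCR6, NDI1 and ATP18, and 0 higher (4.85% and 7.01% of all genes). The DESeq2 Wald test also called none, and at an unadjusted p under 0.05 it gave those 3 and, on the higher side, ATP17. There were 16 negative and 20 positive log2 fold changes, with a median of 0.03 against 0.01 over all genes. The 95% interval lay within a 2-fold change for 25 members, and reached a 2-fold lower level for 5 and a 2-fold higher level for 6. The SE ran from 0.20 to 0.37 in this comparison and in the one before, so a 2-fold difference lies inside the interval of the other 11 members.

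Overexpression was also set directly against the libraries labelled deletion. Here 0 members were called (lowest adjusted p = 0.53, edgeR), against 0.668% of all genes higher and 0.0589% lower. NDE1 was the 1 member under an unadjusted p of 0.05, on the lower side (2.81% of all genes lower, 3.95% higher and 6.76% in all), by edgeR and by the DESeq2 Wald test. Of the members 26 had a negative value, with a median of -0.08 against -0.02 over all genes, of which 2646 of 5090 were negative. The 95% interval lay within a 2-fold change for 29 members. This comparison shares libraries with both others, so the 3 sets of values are not independent.

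**Figure D2:**
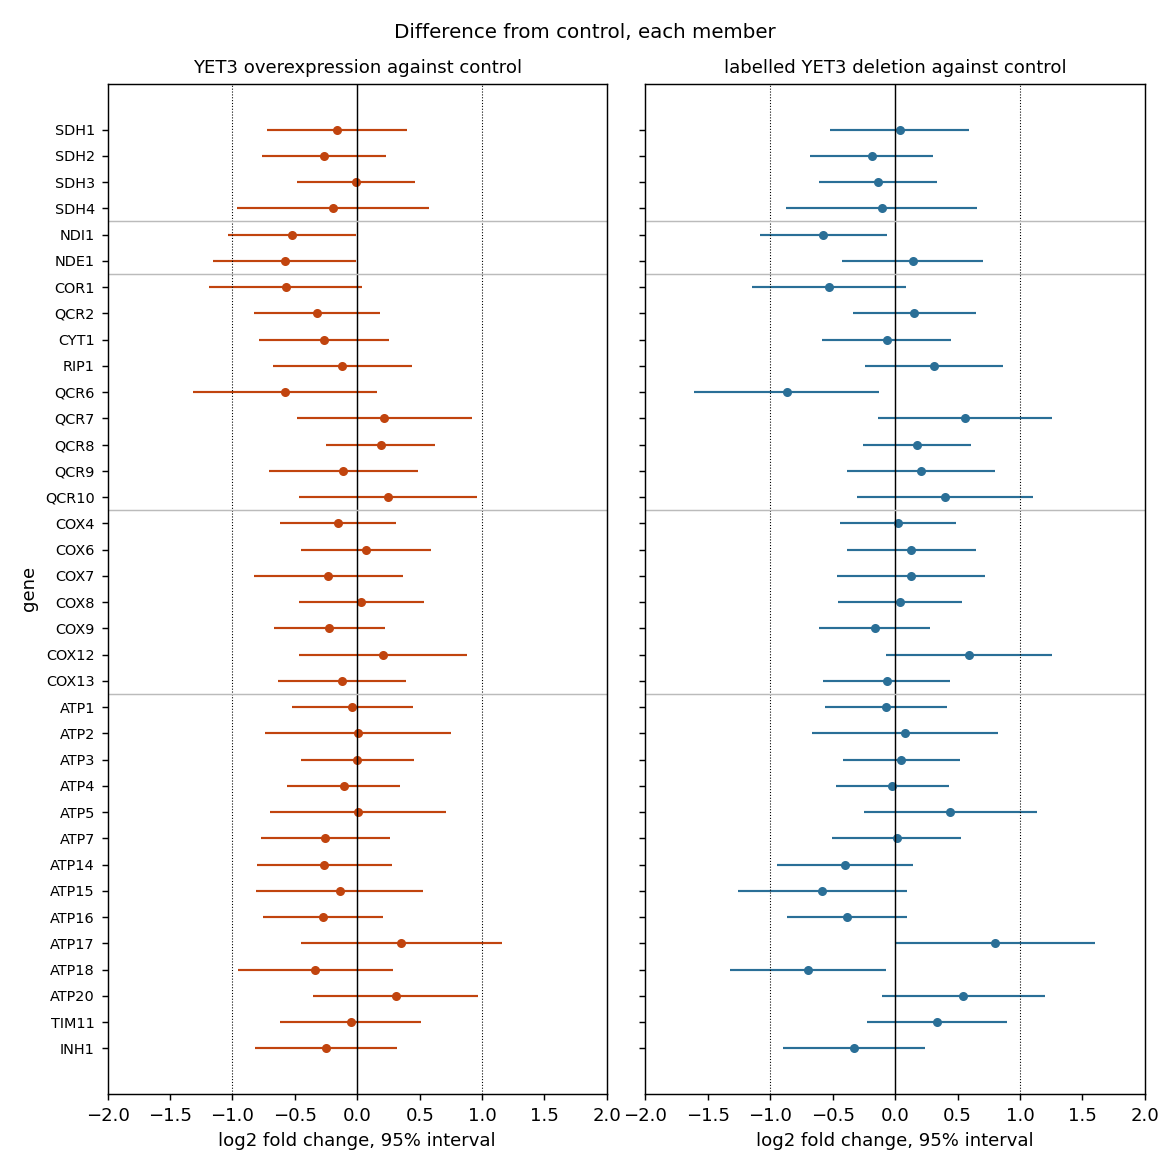
Log2 fold change against control (points) with its 95% interval (bars) for the 36 members, by class from top to bottom, for YET3 overexpression (left) and the libraries labelled YET3 deletion (right). Dotted lines mark a 2-fold change. Intervals include 0 for all members except NDI1 and NDE1 on the left and NDI1, QCR6 and ATP18 on the right, none of which passed adjustment over all genes.

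Both NADH dehydrogenase genes lay below the control in all 3 overexpression libraries, with a median log2 fold change of -0.55, against -0.18, -0.12, -0.12 and -0.08 for complexes II, III and IV and the ATP synthase. In the libraries labelled deletion the 5 medians, in that order of classes, were -0.22, -0.12, 0.17, 0.04 and -0.01. Without the 3 libraries that stood apart the medians were -0.61, -0.07, -0.27, -0.21 and -0.17 in overexpression and -0.22, -0.22, -0.09, -0.03 and -0.15 in deletion 2, where complexes III and IV turned in sign. NDI1 (YML120C, R64 chromosome XIII, 28266 to 29807, minus strand) encodes the internal dehydrogenase, which oxidises NADH of the mitochondrial matrix. It had 170.2, 193.9 and 172.9 CPM in overexpression libraries 1 to 3, 172.1, 219.98 and 122.6 CPM in the libraries labelled deletion, and 260.4, 238.4 and 276.9 CPM in the control. All 6 libraries of the altered strains lay below all 3 control libraries. The log2 fold change was -0.52 in overexpression (SE 0.24, adjusted p = 0.686, edgeR) and -0.57 in the libraries labelled deletion (SE 0.24, adjusted p = 0.40). Leaving out the 3 libraries that stood apart gave -0.48 and -0.21.

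NDE1 (YMR145C, chromosome XIII, 554793 to 556475, minus strand) encodes the external dehydrogenase, which oxidises cytosolic NADH at the outer face of the inner membrane. Overexpression libraries 1 to 3 held 145.2, 145.0 and 186 CPM. The libraries labelled deletion held 218, 206 and 368 CPM and the control libraries 235, 271 and 198 CPM. The overexpression libraries lay below every other library, while deletion and control overlapped. The log2 fold change was -0.58 in overexpression against control (SE 0.27, 95% interval -1.16 to -0.01, adjusted p = 0.69, edgeR). It was 0.14 in deletion against control (SE 0.26, adjusted p = 0.82) and -0.72 in overexpression against deletion (SE 0.26, adjusted p = 0.53). NDE1 was the 1 member called in any fit. It fell by 0.74 on the log2 scale in overexpression when the 3 libraries that stood apart were left out (SE 0.17, adjusted p = 0.0098), with 2 overexpression and 3 control libraries. In that fit 1.44% of all genes were called lower and 1.71% higher. With a term for those libraries in the fit of all 9 it stood at -0.75 and missed the threshold (adjusted p = 0.071), while 0.806% of all genes were called lower and 1.41% higher. Over 17 alternatives its adjusted p in overexpression ranged from 0.0098 to 0.992. NDE2, which encodes a related dehydrogenase, had 0 to 28 counts per library and did not pass the filter on low counts, and how reads shared by the copies were assigned is not stated.

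Complex III genes lay on both sides of the control, with 6 of 9 values negative in overexpression and 3 of 9 in the libraries labelled deletion. QCR6 (YFR033C, chromosome VI, 224326 to 224769, minus strand) encodes a small acidic subunit of the complex. It had 365.5, 411 and 157.5 CPM in overexpression, 190.4, 367 and 210.5 CPM in the libraries labelled deletion, and 428, 517 and 453 CPM in the control. Every control library was above the other 6, and overexpression 3, deletion 1 and deletion 3 were the lowest. Its log2 fold change was -0.58 in overexpression (SE 0.34, adjusted p = 0.75, edgeR) and -0.87 in the libraries labelled deletion (SE 0.34, 95% interval -1.61 to -0.13, adjusted p = 0.40). Without the 3 libraries that stood apart the values were -0.27 and -0.35.

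COR1 (YBL045C, chromosome II, 134143 to 135516, minus strand), a core subunit gene, had 496, 389 and 228 CPM in overexpression, 340.01, 488.5 and 322 CPM in the libraries labelled deletion, and 522, 508 and 637 CPM in the control. The control libraries were again above all others, by little for overexpression 1. Its log2 fold changes were -0.57 (SE 0.28) and -0.53 (SE 0.28), with adjusted p of 0.74 and 0.43 (edgeR). Overexpression 3, deletion 1 and deletion 3 held its 3 lowest values, and without them it stood at -0.31 and -0.16. QCR7 (YDR529C, chromosome IV, 1496165 to 1496548, minus strand), a small subunit gene of the same complex, had 562, 746 and 1164 CPM in overexpression, 1229, 616 and 1287 CPM in the libraries labelled deletion, and 753, 799.8 and 563 CPM in the control. The 3 highest values were those of overexpression 3, deletion 1 and deletion 3, and the other 6 libraries overlapped. Its log2 fold changes were 0.22 (SE 0.32) and 0.56 (SE 0.32), with adjusted p of 0.91 and 0.44, and both turned to negative values, -0.13 and -0.22, without those 3 libraries.

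The other 6 complex III genes overlapped the control in both comparisons, with log2 fold changes between -0.32 and 0.40. QCR2, the other core subunit, had -0.32 in overexpression and 0.15 in the libraries labelled deletion. Its overexpression libraries, at 137.8 to 155.2 CPM, lay below those labelled deletion, at 168.5 to 261 CPM, but not below the control, at 153.9 to 205 CPM. CYT1, for cytochrome c1, and RIP1, for the Rieske iron-sulfur protein, stood at -0.27 and -0.12 in overexpression, and at -0.07 and 0.31 in the libraries labelled deletion. QCR8, QCR9 and QCR10, small subunit genes, stood between -0.11 and 0.25 in overexpression and between 0.17 and 0.40 in the libraries labelled deletion. RIP1, leaving out the 3 libraries that stood apart, was at -0.31 and -0.09 and QCR10 at -0.15 and -0.09, in overexpression and in deletion 2.

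Complex II genes stayed within the spread between libraries. SDH2 (YLL041C, chromosome XII, 53131 to 53931, minus strand), for the iron-sulfur subunit, had 173.6, 203 and 124.7 CPM in overexpression, 156.7, 176 and 202.5 CPM in the libraries labelled deletion, and 207, 197 and 202 CPM in the control. SDH3 (YKL141W, chromosome XI, 179667 to 180263, plus strand), a membrane anchor subunit, had 390.5, 358 and 413.5 CPM in overexpression, 289.7, 443 and 333 CPM in the libraries labelled deletion, and 395.5, 357 and 422 CPM in the control. SDH4 (YDR178W, chromosome IV, 817950 to 818495, plus strand), the other membrane anchor, had 173.6, 231.7 and 111.6 CPM in overexpression, 121.2, 177.5 and 264 CPM in the libraries labelled deletion, and 215, 248 and 114.3 CPM in the control. The strains overlapped for all 3 genes and for SDH1. The 4 log2 fold changes lay between -0.27 and -0.01 in overexpression and between -0.19 and 0.04 in the libraries labelled deletion. SDH9, a relative of SDH1 outside the members, had 1 to 13 counts per library.

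Among complex IV genes COX12 (YLR038C, chromosome XII, 224921 to 225172, minus strand), a small subunit at the intermembrane side, had the largest absolute log2 fold change in the libraries labelled deletion. It had 165.2, 167.1 and 328 CPM in overexpression, 360.1, 192.7 and 304 CPM in the libraries labelled deletion, and 188.6, 201.6 and 175.8 CPM in the control. Overexpression 3, deletion 1 and deletion 3 were again the highest, and the other 6 overlapped. Its log2 fold changes were 0.21 (SE 0.31, adjusted p = 0.91, edgeR) and 0.59 (SE 0.31, adjusted p = 0.43). Without those libraries they were -0.21 and 0.01.

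COX7 (YMR256C, chromosome XIII, 778945 to 779127, minus strand), also a small subunit, had 412, 569 and 613 CPM in overexpression, 907, 678 and 450.3 CPM in the libraries labelled deletion, and 743, 545 and 580.3 CPM in the control. COX9 (YDL067C, chromosome IV, 334217 to 334396, minus strand) had 215.3, 282 and 260.4 CPM in overexpression, 266, 278 and 245.2 CPM in the libraries labelled deletion, and 298, 317.5 and 264 CPM in the control. The strains overlapped for both. COX7 stood at -0.23 and 0.13 and COX9 at -0.22 and -0.16, in overexpression and in the libraries labelled deletion. The remaining subunit genes COX4, COX6, COX8 and COX13 lay between -0.15 and 0.07 in overexpression, and between -0.07 and 0.13 in the libraries labelled deletion.

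**Figure D3:**
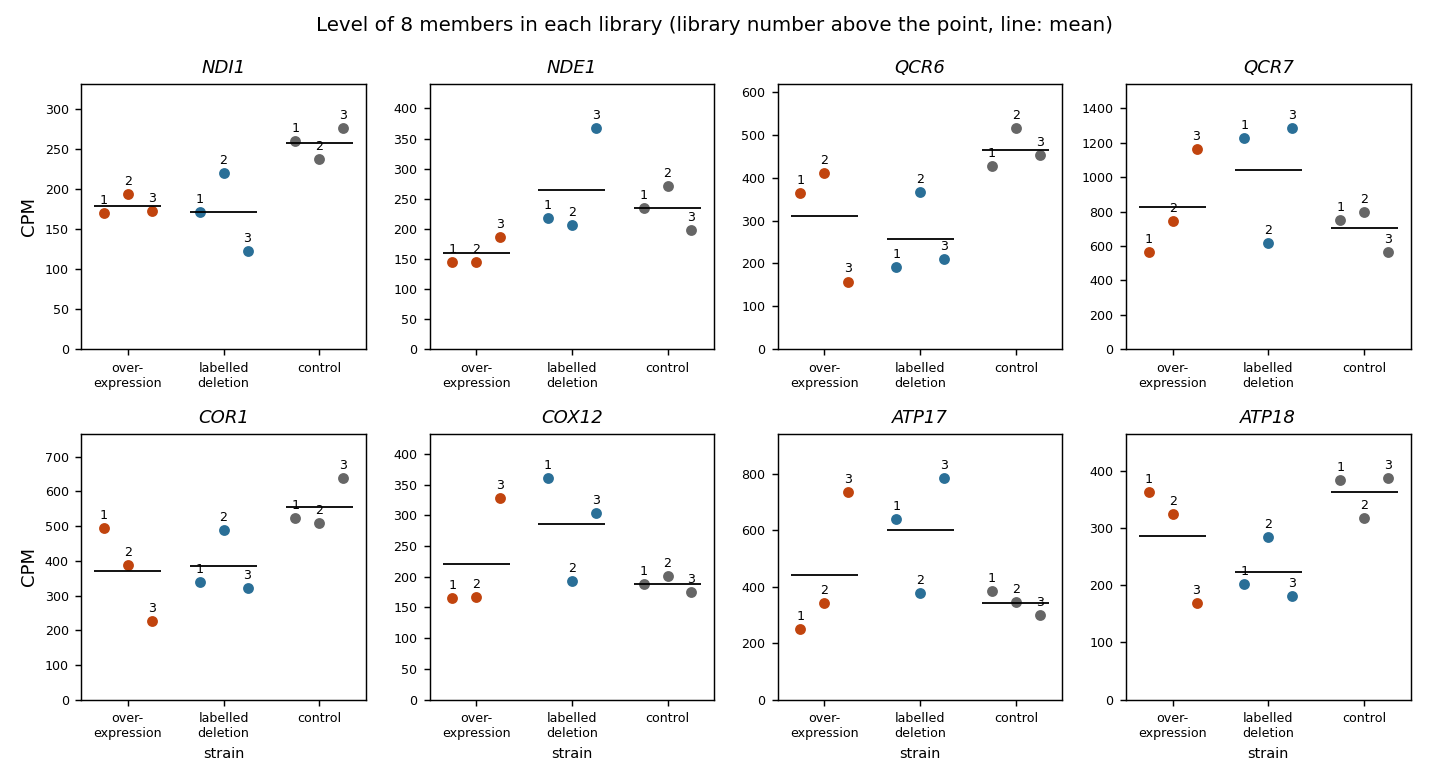
CPM of 8 members in each library, with the library number above each point and the mean of the strain as a line. NDI1, COR1 and QCR6 lay below the control in all 6 libraries of the altered strains, and NDE1 in the 3 overexpression libraries, while QCR7, COX12 and ATP17 were highest and ATP18 lowest in overexpression 3, deletion 1 and deletion 3.

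The ATP synthase genes also lay on both sides of the control, with 10 of 14 values negative in overexpression and 7 of 14 in the libraries labelled deletion. ATP17 (YDR377W, chromosome IV, 1228611 to 1228916, plus strand), for subunit f of the membrane part, had 248.7, 342 and 735 CPM in overexpression, 639, 379 and 783 CPM in the libraries labelled deletion, and 386, 345 and 298.9 CPM in the control. ATP18 (YML081C-A, chromosome XIII, 103983 to 104162, minus strand), for another small membrane subunit, had 364, 325 and 168.5 CPM in overexpression, 202.8, 283.7 and 181.2 CPM in the libraries labelled deletion, and 384, 317.5 and 387 CPM in the control. The 3 libraries that stood apart were highest for ATP17 and lowest for ATP18. ATP17 had log2 fold changes of 0.35 (SE 0.37, adjusted p = 0.87, edgeR) and 0.80 (SE 0.37, adjusted p = 0.41). ATP18 had -0.33 (SE 0.29, adjusted p = 0.84) and -0.70 (SE 0.29, adjusted p = 0.40). Without those libraries ATP17 turned to -0.24 in overexpression and stood at 0.12 in the libraries labelled deletion, and ATP18 stood at -0.05 and -0.33.

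ATP1, for subunit alpha, averaged 423 ± 61.7 CPM in overexpression, 415 ± 56.4 CPM in the libraries labelled deletion and 433 ± 82.3 CPM in the control (SD, n = 3 each). ATP2, for subunit beta, averaged 543 ± 197, 566 ± 301 and 540.2 ± 15.8 CPM (SD, n = 3 each) in the same order, and its means lay closer together than the libraries of either altered strain. Its log2 fold changes were 0.01 and 0.08 with all libraries, but -0.32 and -0.23 without the 3 that stood apart. ATP3, for the gamma subunit of the rotor, averaged 167.7 ± 7.65, 173.9 ± 19.3 and 165 ± 31.9 CPM (SD, n = 3 each). The other 9 members of this class gave log2 fold changes between -0.27 and 0.31 in overexpression and between -0.58 and 0.55 in the libraries labelled deletion. The ends of those ranges were ATP16, a subunit of the central stalk, and ATP20, a subunit with a role in dimers, in overexpression, and ATP15, also of the central stalk, and ATP20 in the libraries labelled deletion. ATP16, leaving out the 3 libraries that stood apart, was at -0.22 and -0.17, ATP15 at 0.06 and -0.02, and ATP20 at -0.02 and -0.08, in overexpression and in the libraries labelled deletion, so that ATP20 turned in sign in both. INH1, the inhibitor of ATP hydrolysis, stood at -0.25 and -0.33.

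Libraries of overexpression and control did not overlap for 5 members, all on the lower side: NDI1, NDE1, COR1, QCR6 and ATP16. Over all genes tested 8.47% lay lower and 8.51% higher without overlap. Libraries labelled deletion and control did not overlap for 5 members either, again all lower: NDI1, COR1, QCR6, ATP16 and ATP18 (10% of all genes lower and 9.41% higher). Between overexpression and the libraries labelled deletion 2 members did not overlap, NDE1 and QCR2, both lower in overexpression (4.18% of all genes lower and 5.3% higher). The first 2 counts share the control libraries. In either direction together, 13.9%, 13.9% and 5.56% of the members did not overlap in the 3 comparisons, against 17%, 19.4% and 9.49% of all genes.

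Summed over a class, the members differed between strains by about the spread between libraries in 4 classes, with the NADH dehydrogenases as the exception. The 14 ATP synthase genes summed to 4454 ± 467.5 CPM in overexpression, 4670.5 ± 357 CPM in the libraries labelled deletion and 4697 ± 109.9 CPM in the control (SD, n = 3 each). Complex III summed to 3298 ± 365 CPM in overexpression, 3753 ± 386 CPM in the libraries labelled deletion and 3536 ± 204 CPM in the control. The values of complex IV were 1927 ± 354.5, 2193 ± 276 and 2044 ± 157 CPM, and those of complex II 870.2 ± 57.5, 886 ± 137 and 944 ± 59.8 CPM, in the same order. For these 4 classes the libraries of the strains overlapped. The NADH dehydrogenases summed to less in the overexpression libraries than in any other library, with 315, 339 and 359 CPM in overexpression libraries 1 to 3, against 390.3, 426 and 490.3 CPM in the libraries labelled deletion and 495, 509 and 475 CPM in the control. The libraries labelled deletion overlapped the control with TMM and DESeq2 scaling, but not with total counts, where they summed to 404, 428 and 456 CPM against 502, 514 and 484 CPM in the control. No test was run on these sums.

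**Figure D4:**
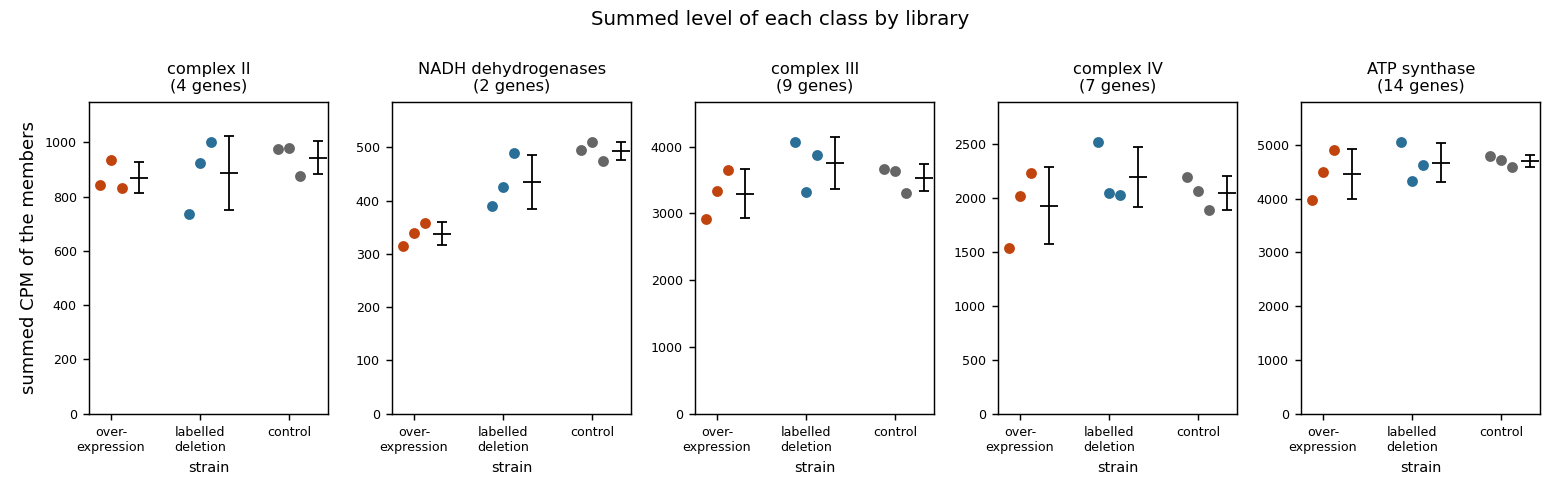
Summed CPM of the members of each class in each library (points, libraries 1 to 3 from left to right in a strain) with the mean and SD of the strain beside them. The strains overlap in 4 classes, and the overexpression libraries lie at 315 to 359 CPM for the 2 NADH dehydrogenases, below the 475 to 509 CPM of the control.

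The 3 libraries that stood apart held the 3 highest of the 9 values for 10 members: RIP1, QCR7, QCR8, QCR10, COX6, COX12, ATP5, ATP17, ATP20 and TIM11. They held the 3 lowest values for 5 members: COR1, QCR6, ATP15, ATP16 and ATP18. The shares were 27.8% and 13.9% of members, against 16.3% and 14.7% of all genes tested. Complex III and the ATP synthase each had members on both sides, so genes of 1 complex were far apart in the same library. In deletion 3, for example, QCR7 stood at 1287 CPM and QCR6 at 210.5 CPM, while control 3 had 563 CPM of QCR7 and 453 CPM of QCR6. These libraries were singled out from the data and come from both altered strains, so no mean or test was taken over them. Without them 33 of 36 log2 fold changes were negative in overexpression (median -0.20) and 27 of 36 in the libraries labelled deletion (median -0.12). Over all genes 2695 and 2713 of 5262 were negative, with medians of -0.01 in both comparisons. Subunits and carriers outside the members had 12 and 14 of 14 negative values in the same fit. Mitochondrial ribosomal protein genes had 39 and 36 of 56, and coenzyme Q synthesis genes 3 and 7 of 11. Only deletion 2 was then left of its strain.

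Other genes of respiration were counted from lists kept beside the members. None of them was called in any of the 3 comparisons by the edgeR fit of all 9 libraries without an added term. Without the 3 libraries that stood apart, PET494, a translational activator of COX3 mRNA, and RPM2, a subunit of mitochondrial RNase P, fell by 1.12 and 0.90 on the log2 scale in overexpression (SE 0.26 and 0.20, adjusted p = 0.0080 and 0.0056, edgeR). Both were also called with a term for those libraries, added after seeing the data. In overexpression against deletion that fit called SCO1 lower (-1.13, SE 0.28, adjusted p = 0.032, edgeR). It called COX15 higher (0.93, SE 0.24, adjusted p = 0.044). Of 5090 genes, 89 were called higher and 17 lower there, and deletion 2 is the only library of its strain outside the 3. At an unadjusted p under 0.05 the complex IV assembly list held 4 genes in overexpression (15.4%, against 7.11% of all genes) and 3 in the libraries labelled deletion (11.5%, against 11.9%). The complex III assembly list held 0 and 2 (16.7%), and the complex II assembly list 0 and 1 (14.3%). The shares of the other lists, regulators aside, ran from 0% to 9.09% in overexpression and from 0% to 7.14% in the libraries labelled deletion. Of 13 measured subunits and carriers outside the members, 5 had positive and 8 negative values in overexpression (median -0.09), and 6 and 7 in the libraries labelled deletion (median -0.01). The assembly factors of complex IV, 26 measured, had 18 negative values in overexpression (median -0.17) and 17 in the libraries labelled deletion (median -0.23). Those of complexes II and III and of the ATP synthase, with 7, 12 and 12 measured, had medians of 0.07, 0.11 and -0.13 in overexpression and of 0.00, 0.08 and 0.10 in the libraries labelled deletion. The 11 citrate cycle genes had 8 negative values in overexpression and 9 in the libraries labelled deletion (medians -0.28 and -0.24). The 11 genes of coenzyme Q synthesis had medians of 0.00 and -0.07, and the 56 mitochondrial ribosomal protein genes medians of -0.10 and -0.08. Over all genes the medians were 0.00 and 0.01.

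Cytochrome c and subunit 5 of complex IV exist as aerobic and hypoxic forms. CYC1, the main aerobic cytochrome c gene, averaged 50.2 ± 20.2 CPM in overexpression, 55.0 ± 10.8 CPM in the libraries labelled deletion and 81.0 ± 4.30 CPM in the control (SD, n = 3 each; log2 fold changes -0.66 and -0.58, adjusted p = 0.69 and 0.42, edgeR), and CYC7, the hypoxic form, stood at -0.47 and 0.42. COX5A, the aerobic form, had log2 fold changes of 0.22 and 0.12, and COX5B, the hypoxic form, 0.10 and 0.24. Leaving out the 3 libraries that stood apart, CYC1 stood at -0.41 and -0.31 and CYC7 at -0.66 and -0.13, a change of sign in deletion 2. COX5A then turned to -0.13 and -0.16, and COX5B stood at -0.11 in overexpression and near 0 in deletion 2.

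Regulators of these genes were measured for 13 of 14 listed, and 0 were called by the edgeR fit of all 9 libraries without an added term. RPM2, which is on this list, was called lower in overexpression in both fits that treat the 3 libraries separately. At an unadjusted p under 0.05 there were 4 in overexpression (30.8%, against 7.11% of all genes) and 6 in the libraries labelled deletion (46.2%, against 11.9%). Without the 3 libraries that stood apart there were 4 and 3 (30.8% and 23.1%, against 12.5% and 5.11% of all genes), and with a term for them 4 and 2 (30.8% and 15.4%, against 9.96% and 4.5%). HAP4, which encodes the activating subunit of the CCAAT-binding complex, had 215, 224 and 210.05 CPM in overexpression, 164.98, 235 and 178.5 CPM in the libraries labelled deletion, and 265, 374 and 308 CPM in the control. All control libraries lay above the other 6 (log2 fold changes -0.55 and -0.72, SE 0.23 each, adjusted p = 0.66 and 0.40). HAP1, which encodes a heme-responsive activator, had 329, 312 and 711 CPM in overexpression, 474, 282 and 466 CPM in the libraries labelled deletion, and 229, 227 and 242 CPM in the control, with every control library below the others (0.95 and 0.81, SE 0.33 and 0.32, adjusted p = 0.43 and 0.40). ROX1, the repressor of hypoxic genes, stood at -0.70 and -1.10 (SE 0.36 and 0.37, adjusted p = 0.74 and 0.40), and its overexpression libraries overlapped the control. HAP4 without the 3 libraries stood at -0.54 and -0.44, HAP1 at 0.47 and 0.29 and ROX1 at -0.49 and -0.41, in overexpression and in deletion 2.

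Subunits encoded by mitochondrial DNA were counted unevenly. COX1 had 592, 1062 and 1266 counts in overexpression, 2966, 489 and 1016 counts in the libraries labelled deletion, and 547, 3208 and 116 counts in the control. OLI1, for ATP synthase subunit c, had 34 to 1506 counts. COX2, COX3, COB, ATP6 and ATP8 had between 0 and 34 counts in each library, too few for the test. COX1 stood at 0.73 and 0.67 with an SE of 0.53 in both comparisons with control, and OLI1 at -0.21 and -0.45 with an SE of 0.53, within the spread between libraries of 1 strain (1082 ± 777 CPM for COX1 in the control, SD, n = 3). VAR1, for a mitochondrial ribosomal protein, had only 1 to 35 counts per library and stood at 1.88 and 1.43 (SE 0.95 in both, adjusted p = 0.74 and 0.48, edgeR). COX1 without the 3 libraries that stood apart stood at 0.25 in overexpression and -0.59 in deletion 2, OLI1 at -0.24 and -1.02, and VAR1 at 0.24 and -0.42.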

How the data were processed

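The values are raw counts, which the authors deposited as whole numbers per open reading frame, in a table for each library. The submitters' processing notes name cutadapt, UMI-tools and build R64. The aligner, the window and strand of counting, and the use of molecules or reads, are not given in the sources used. Antisense and shared reads therefore cannot be told apart. Each table had 6631 rows, of which 2 repeated an identifier and were left out (0.0372% to 0.0569% of counts). Symbols and coordinates come from RefSeq R64, which matched 5956 of 6629 identifiers, and no member overlaps another annotated gene there. Genes were kept with filterByExpr (minimum count 10, minimum total 15), which left 5090. All 9 libraries entered 1 fit with TMM scaling and edgeR's quasi-likelihood test, adjusted by Benjamini-Hochberg at 0.05 (R 4.3.3, edgeR 4.0.16, DESeq2 1.42.0). The SE is the absolute log2 fold change over the square root of F, and 95% intervals use the t distribution. The test was checked on simulated data with 200 altered genes. The check required a minimum recovery only for changes larger than 2-fold, and a limit on false calls. It is therefore not used to say how often a 2-fold change would be called. The simulated libraries shared a common mean for every other gene and lacked the split of the libraries that stood apart. They do not show how the test performs with that split. No pair of libraries in a strain agreed within sampling noise (chi-square per degree of freedom 1.58 to 19.1). Members and lists were chosen with earlier results of these data known. Values in every library are given for the 2 members of each class with the largest absolute log2 fold change in either comparison with control and for any member called. Of the related lists, the cytochrome c and COX5 pairs, HAP1, HAP4 and ROX1 and any called gene are named. The alternatives were other scalings, filters and tests, a replicate block and subsets of libraries. The windows before the start codons were read from the genome because no promoter table was used.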

Additional observations from a re-analysis of the deposited data

How the results depend on the processing

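In each of the 3 comparisons 0 members were called when DESeq2 size factors replaced TMM, with the Wald test of DESeq2, when low counts were kept or genes under 20 CPM in 3 libraries removed, when the remaining strain was left out of the fit, and with each of the 9 libraries left out in turn. The exception was the fit without the 3 libraries that stood apart, added after seeing the data, which called 1 member lower in overexpression, NDE1. A term for those libraries, also added after seeing the data, called 0 members. Signs of uncalled members were less stable: 18, 25 and 22 of 36 members changed sign in at least 1 alternative in overexpression against control, deletion against control and overexpression against deletion. The summed level of complex III in the libraries labelled deletion was 3321 CPM from deletion 2 alone, and the cause was not tested. Over all genes the calls in overexpression against control were 9 to 37 higher and 2 to 13 lower with 1 library left out, against 32 and 11. They were 43 and 17 with the Wald test, 90 and 76 without the 3 libraries and 72 and 41 with the term. In the libraries labelled deletion, 1 gene was lower, and 4 with the Wald test, 3 with 6 libraries and 5 without the 3, and 1 to 5 with 1 library left out, the 5 without overexpression 3. Overexpression against deletion had 34 higher and 3 lower, against 13 and 2 with 6 libraries, 59 and 17 without the 3, which leaves a single deletion library assumed to vary like the others, and 89 and 17 with the term. With 1 library left out it had 14 to 57 higher and 1 to 17 lower, with 57 and 17 without overexpression 3 and 14 and 4 without deletion 3. With the replicate number as a block, 0 members were called, and 23 genes were higher and 4 lower in overexpression against control. The numbers are not shown to pair the libraries. Deviations of libraries with the same number correlated between -0.45 and 0.49, and those with different numbers between -0.70 and 0.57. Depth limits the lower end: 3 counts stand for 13.4 CPM in control 3 and 1.84 CPM in deletion 1, before TMM scaling.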
